A study of Mus musculus with 6 samples.

Results

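The Elavl and Celf genes encode 2 families of RNA-binding proteins, and all 10 of their mouse members (Elavl1 to Elavl4 and Celf1 to Celf6) were followed here among 48709 genes counted in embryonic neocortex. Members were chosen by symbol, with earlier results of these data known. All 10 were found, and all 10 passed the filter on low counts. Neocortex was dissected from 6 C57BL/6 mouse embryos (E15.5) and profiled by RNA-seq. There were 3 wild-type libraries (WT) and 3 from embryos heterozygous for a Rest allele without exon 4, Rest(+/deltaExon4), written Rest_het below, whose library titles carry KO although the genotype given is heterozygous. The labels name no treatment, litter or sex. The mice are named as separate animals, so p-values measure the spread between single animals of each genotype. REST is a zinc-finger protein that represses neuronal genes, and the comparison asked how the heterozygous allele shifts cortical transcripts.

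Elavl proteins, also called Hu proteins, carry RNA recognition motifs and bind AU-rich and U-rich stretches, mainly in introns and 3′ UTRs, where they stabilise transcripts and alter splicing. Elavl1 (HuR) is made in most cell types, while Elavl2 (HuB), Elavl3 (HuC) and Elavl4 (HuD) appear in the nervous system as cells become neurons and are widely used as neuronal markers. Celf proteins have a related layout, prefer GU-rich sequences, and regulate splicing, decay and translation. Celf1 and Celf2 are widespread, and Celf3 to Celf6 are found mainly in neural tissue.

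Promoter windows show what surrounds the start sites of these genes, since the perturbed factor is a DNA-binding repressor. RefSeq (GRCm38.p6) gave 32 windows of 300 bases (250 before and 50 after an annotated start) for 9 of the 10 members, and Celf4 had none. Letters of the RE1, the site that REST binds, were searched on both strands. The left part, TTCAGCACC, occurred in 0 of the 32 windows and in 0.371% of all 32851 windows. The right part, GGACAGC, occurred in 1 of the 32, a Celf2 window, and in 6.56% of all. These counts describe only the letters in the windows. The E-box CAGCTG was found in 11 of the 32 windows, in 6 members, against 16.3% of all windows, and the GC box GGGCGG in 16 of the 32, in 7 members, against 35.7% of all. Several windows of one gene overlap, so they are not independent of each other. Shown here are the windows of the widespread member Elavl1, of the neuronal member Elavl3, and of the Celf2 start with the GGACAGC match, each on the minus strand and written from 5′ to 3′. Capitals mark matches to the searched letters, among them the TATA box TATAAA, which 4 of the 32 windows and 13.6% of all windows held.
Elavl1, chr8:4325051-4325350: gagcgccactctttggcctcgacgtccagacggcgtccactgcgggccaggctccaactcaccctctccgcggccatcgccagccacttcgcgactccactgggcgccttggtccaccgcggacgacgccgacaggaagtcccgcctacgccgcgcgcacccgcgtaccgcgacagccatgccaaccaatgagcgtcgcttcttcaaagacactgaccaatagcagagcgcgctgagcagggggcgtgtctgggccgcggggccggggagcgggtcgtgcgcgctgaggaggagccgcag
Elavl3, chr9:22051974-22052273: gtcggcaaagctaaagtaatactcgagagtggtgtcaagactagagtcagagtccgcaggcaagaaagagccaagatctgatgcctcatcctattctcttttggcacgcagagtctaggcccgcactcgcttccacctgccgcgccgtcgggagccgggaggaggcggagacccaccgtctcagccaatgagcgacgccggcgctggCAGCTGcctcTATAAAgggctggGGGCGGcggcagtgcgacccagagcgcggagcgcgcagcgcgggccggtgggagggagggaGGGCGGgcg
Celf2, chr2:7396149-7396448: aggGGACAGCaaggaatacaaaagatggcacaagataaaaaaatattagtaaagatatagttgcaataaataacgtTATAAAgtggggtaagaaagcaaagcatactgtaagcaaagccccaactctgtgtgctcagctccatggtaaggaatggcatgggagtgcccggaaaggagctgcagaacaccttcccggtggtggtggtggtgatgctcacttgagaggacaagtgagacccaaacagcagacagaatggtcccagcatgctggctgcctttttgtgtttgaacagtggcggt
The Elavl1 window held 39 CG dinucleotides and none of the searched letters. The Elavl3 window held 29 CG dinucleotides, and its E-box, TATA box and first GC box letters lie close together before the start. The Celf2 window held 4, below the median of 7 over all windows, although another Celf2 start, at chr2:6871986-6872285, held 48.

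The 3′ UTRs were searched for the AU-rich and GU-rich letters that these proteins are known to prefer, and the members differed widely. In the longest annotated 3′ UTR of each gene (GENCODE M21, sense strand, overlapping matches counted), the AU-rich nonamer TTATTTATT occurred 8 times in Elavl1, 1 time in Elavl4, 1 time in Celf3 and in none of the other 7 members. Of 12999 tested genes with such a UTR, 8.58% held it at least 1 time, and 15.8% of the 4182 whose UTR has at least 2000 bases did. All 8 Elavl1 matches start between positions 3794 and 3840 of a UTR of 4218 bases. The shorter ATTTA is common, held by 71.8% of these genes and by 96.2% of those with the longer UTRs. It occurred 17 times in Elavl1, 15 in Elavl2, 8 in Elavl3 and 9 in Elavl4, and 10, 12, 1, 8, 1 and 0 times in Celf1 to Celf6. These UTRs had 1075 (Celf3) to 7381 (Celf2) bases. Per kilobase, ATTTA stood at 4.03, 6.06, 2.29 and 3.45 in Elavl1 to Elavl4. In Celf1 to Celf6 it stood at 1.63, 1.63, 0.93, 3.77, 0.32 and 0, against a median of 1.35 over these genes. The GU-rich element (GRE) that CELF1 is known to bind was in 0 of the 10 members. It was in 4.4% of genes and in 10.1% of those with longer UTRs. Its shorter piece TGTTTGT, in 30.7% of genes and 57.9% of those with longer UTRs, occurred 3 times in Elavl1, 1 in Elavl2, 3 in Elavl4, 3 in Celf1, 4 in Celf2 and 2 in Celf5, and 0 times in Elavl3, Celf3, Celf4 and Celf6. The 3 sites below show the nonamer in capitals with its neighbours, named with its first position in the UTR, and the Elavl1 site is the first of its cluster.
Elavl1, position 3794: gtcatgaaaaTTATTTATTtatttatttat
Elavl4, position 1329: cttgaaacacTTATTTATTtaattgcagat
Celf3, position 1002: ttctctactcTTATTTATTgagttttactt

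The libraries held 17835117 to 20753653 read pairs assigned to genes. Levels are in CPM, a gene's reads scaled to a common library total and adjusted between libraries by TMM. Rest, on chromosome 5, measured 21.03, 19.7 and 21.1 CPM in WT and 16.7, 19.0 and 18.6 CPM in Rest_het (edgeR adjusted p = 0.49), and a gene total covers all exons and does not check the deletion. Reads of the transgene sequence LacZ occurred in all 3 WT libraries (27, 51 and 43) and in no Rest_het library, and those of Cre-ERT2 in all 3 Rest_het libraries (10, 16 and 17) and in no WT library, so genotype and these sequences cannot be told apart. Xist had 764 reads in WT replicate 2, 778 in Rest_het replicate 3 and 0 or 1 in the others. WT replicate 1 had the largest shares of unmapped pairs (1.45% against 1.21 to 1.27% in the others) and of pairs outside annotated genes (26.9% against 21.4 to 25.5%). Values without single libraries are given where they moved a member's log2 fold change by over 1.5 times.

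No member of either family was called different between genotypes. Of the 10 members, edgeR called 0 at an adjusted p under 0.05, and DESeq2 and limma-voom called 0. Over the 15385 tested genes edgeR called 0.123% (0.065% higher and 0.0585% lower in Rest_het), all on chromosomes 1, 5 and 8. Of the members only Elavl1, on chromosome 8, lies on any of these, and effects of position were not tested. Without adjustment, 0 of the 10 had an edgeR p under 0.05, where 11.7% of tested genes passed (6.98% higher and 4.72% lower). In 0 of the 10 did the groups separate without overlap, where 19.3% of tested genes did (10.4% higher and 8.94% lower). The log2 fold change of Rest_het over WT was above 0 for 5 members and below 0 for 5, with a median of 0.05 against 0.0054 over all tested genes. For the 9 members other than Celf6, the intervals of the fold (1.96 SE on each side) lay between 0.777 and 1.31. A p above the threshold does not show that the genotypes are alike. These intervals are not limits of detection, and shifts outside them could also have gone uncalled.

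**Figure D1:**
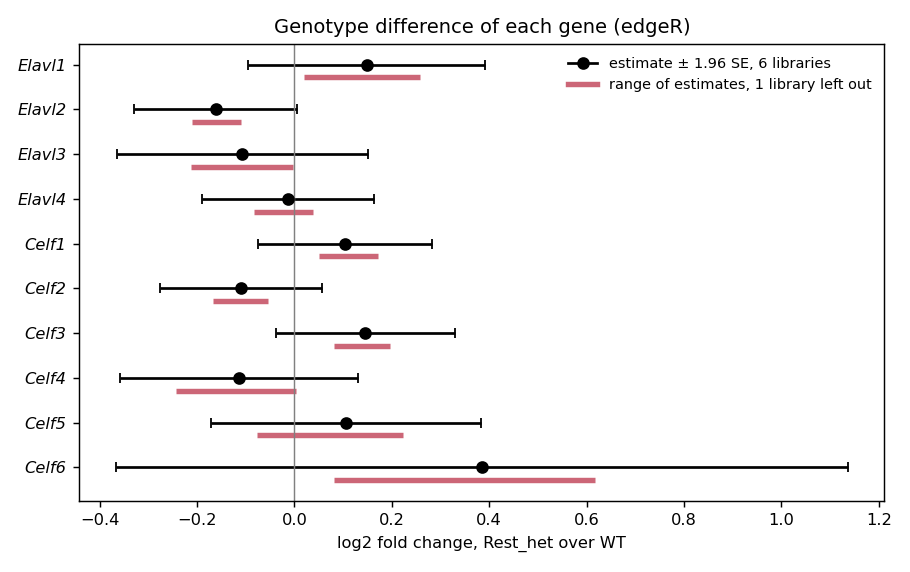
Fitted log2 fold change of Rest_het over WT (x axis) for each gene (y axis), with black bars of 1.96 SE on each side and red bars for the range of estimates when 1 library is left out. Each black bar crosses 0, and the bar of Celf6 is the widest.

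Among the 4 Elavl genes, 1 had a log2 fold change above 0 and 3 below, with a median of -0.06. Elavl1 (chromosome 8, 4285382 to 4325413), the widespread stabiliser of AU-rich transcripts, measured 87.6, 112 and 123 CPM in WT and 119, 116 and 122 CPM in Rest_het. The low value of WT replicate 1 set the group means apart, while the Rest_het libraries lay within a narrow band. The means were 108 ± 18.2 CPM in WT and 119 ± 2.86 CPM in Rest_het (SD, n = 3). The log2 fold change was 0.15 (SE 0.12, edgeR adjusted p = 0.65). It was 0.02 without WT replicate 1 and 0.26 without WT replicate 3.

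Elavl2 (chromosome 4, 91250763 to 91400785), a neuronal member, measured 209, 226 and 198 CPM in WT and 182, 182 and 202 CPM in Rest_het. Its Rest_het replicate 3 lay above WT replicate 3, and the other 2 Rest_het libraries lay below every WT library. This was the member with the smallest unadjusted p in the edgeR fit (0.095, adjusted p = 0.49), and its log2 fold change was -0.16 (SE 0.09). The fold of Rest_het over WT was 0.894, with an interval from 0.796 to 1.004. The estimate stayed below 0 with each library left out, from -0.21 to -0.11.

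Elavl3 (chromosome 9, 22015005 to 22052023), the member found most strictly in neurons, measured 269, 207 and 231 CPM in WT and 216, 250 and 189 CPM in Rest_het. Highest and lowest were WT replicate 1 and Rest_het replicate 3, a ratio of 1.42, and the 4 other values ran across both groups. The log2 fold change was -0.11 (SE 0.13, edgeR adjusted p = 0.77). It was -0.0016 without WT replicate 1 and -0.0083 without Rest_het replicate 3. Leaving out WT replicate 2 gave -0.19 and Rest_het replicate 2 gave -0.21.

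Elavl4 (chromosome 4, 110203722 to 110351909), which stabilises transcripts of growing neurites, measured 180, 201 and 190 CPM in WT and 183, 207 and 176 CPM in Rest_het. Both extremes of the 6 values were Rest_het libraries. Its log2 fold change of -0.01 (SE 0.09, edgeR adjusted p = 0.97) was the closest to 0 of the members, and the interval of its fold ran from 0.877 to 1.12. The sign turned without WT replicate 2 (0.026), Rest_het replicate 1 (0.008) or Rest_het replicate 3 (0.039), and the value was -0.052 without WT replicate 1 and -0.083 without Rest_het replicate 2.

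**Figure D2:**
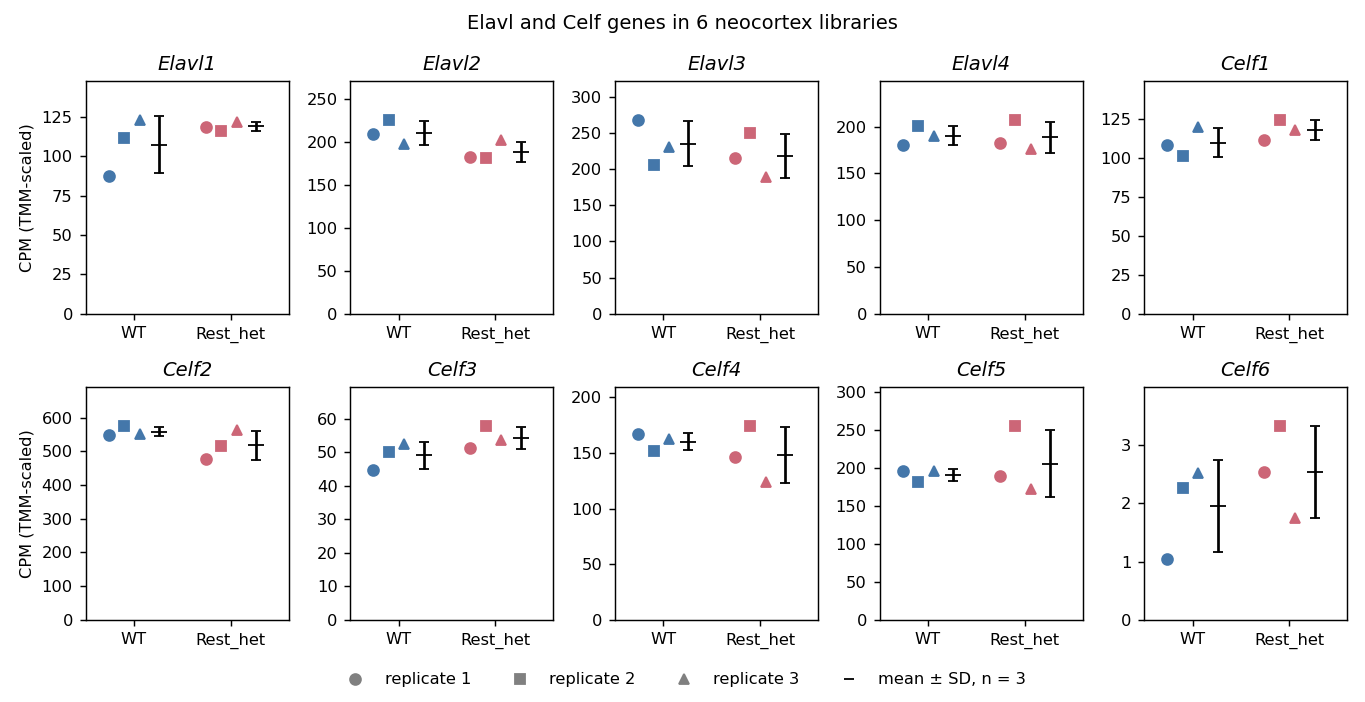
Levels of the 10 genes in CPM (TMM-scaled, y axis from 0, one panel per gene) in 3 WT (blue) and 3 Rest_het (red) libraries, with marker shape for the replicate number and black bars for mean ± SD. In every panel the 2 groups overlap, and Rest_het replicate 2 is the highest library for Celf5 at 256 CPM.

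Among the 6 Celf genes, 4 had a log2 fold change above 0 and 2 below, with a median of 0.11. Celf1 (chromosome 2, 90940382 to 91019497), which promotes decay of GU-rich transcripts and regulates splicing, measured 108, 101 and 119 CPM in WT and 111, 124 and 118 CPM in Rest_het. The groups overlapped, with WT replicate 2 the lowest. Its log2 fold change was 0.10 (SE 0.09, edgeR adjusted p = 0.66). Leaving out WT replicate 2 gave 0.05, WT replicate 3 gave 0.17 and Rest_het replicate 2 gave 0.067.

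Celf2 (chromosome 2, 6539694 to 7509563), a splicing regulator of brain and muscle, had the most reads of the members, from 8802 to 11490 per library. It measured 549, 575 and 551 CPM in WT and 476, 515 and 563 CPM in Rest_het. The WT values lay close together, at a coefficient of variation of 2.6% against 8.4% in Rest_het, and Rest_het replicate 3 fell inside the WT range. Its log2 fold change was -0.11 (SE 0.085, edgeR adjusted p = 0.63). It was -0.05 without Rest_het replicate 1 and -0.17 without Rest_het replicate 3.

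Celf3 (chromosome 3, 94478295 to 94492198), a neural splicing regulator, measured 44.7, 49.998 and 52.4 CPM in WT and 51.3, 57.8 and 53.6 CPM in Rest_het. WT replicate 3 exceeded Rest_het replicate 1, and the other pairs were ordered with Rest_het above WT. Its log2 fold change was 0.15 (SE 0.09, edgeR adjusted p = 0.55), or 0.08 without WT replicate 1.

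Celf4 (chromosome 18), a neuronal member whose loss causes seizures in mice, measured 167, 152 and 162 CPM in WT and 146, 174 and 124 CPM in Rest_het. The WT range lay wholly within the Rest_het range. Its log2 fold change was -0.11 (SE 0.12, edgeR adjusted p = 0.74), and it was 0.0044, of the other sign, without Rest_het replicate 3 and -0.24 without Rest_het replicate 2.

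Celf5 (chromosome 10, 81459227 to 81482709), also enriched in brain, measured 196, 182 and 196 CPM in WT and 190, 256 and 172 CPM in Rest_het. One library, Rest_het replicate 2, stood above the rest, and the other 2 Rest_het libraries lay near or below WT. The log2 fold change was 0.11 (SE 0.14, edgeR adjusted p = 0.80), and -0.08 without that library, 0.16 without Rest_het replicate 1 and 0.22 without Rest_het replicate 3. The unstranded count leaves out pairs that fall where Celf5 overlaps the antisense gene Gm16105. The sum of the 2 strand-specific columns keeps them for Celf5, although without strand marks their gene of origin is not known. This sum was 14.7 to 16.1% higher for Celf5, 7.1 to 9.4% higher for Celf3 and at most 1.0% higher for the other 8. Celf3 shares 74 exon bases (1.4%) with Riiad1 in the gene models used here, and the cause of its gap was not tested. With those sums the log2 fold changes were 0.11 for Celf5 and 0.13 for Celf3, with edgeR adjusted p of 0.77 and 0.57.

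Celf6 (chromosome 9, 59577917 to 59607292), a neural member with a narrow pattern of expression, was the scarce one, with 22, 43 and 49 reads in WT and 47, 60 and 33 in Rest_het. These gave 1.05, 2.27 and 2.52 CPM in WT and 2.54, 3.32 and 1.75 CPM in Rest_het. WT replicate 1 was the lowest and Rest_het replicate 2 the highest, and the groups overlapped. Counting error alone is 15.4% at its mean read number, against 0.99 to 3.19% for the other 9 members. Its log2 fold change was 0.39 (SE 0.38, edgeR adjusted p = 0.71), the interval of its fold ran from 0.776 to 2.20, and leaving out 1 library gave log2 fold changes of 0.08 (WT replicate 1), 0.15 (Rest_het replicate 2), 0.60 (Rest_het replicate 3) and 0.62 (WT replicate 3).

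To compare genes with each other, CPM was divided by gene length in kilobases. These levels rest on the unstranded count. Strand-specific sums were 14.7 to 16.1% higher for Celf5 and 7.1 to 9.4% higher for Celf3. The levels of these genes may thus be understated, and the place of Celf5 among its neighbours is not settled on either length. Per kilobase of all annotated exons, 2 neuronal Elavl genes lay at the top of the unstranded order. Elavl4 averaged 35.2 CPM per kilobase over the 6 libraries and Elavl3 32.9. Celf5 (29.8), Elavl2 (24.1), Celf2 (20.8) and Celf4 (18.0) came next, then Celf1 (13.4), Elavl1 (10.9) and Celf3 (9.44), and Celf6 was last at 0.620 CPM per kilobase. The ranges of neighbours in this order overlapped over the libraries, except between Celf1 and Elavl1 and between Celf3 and Celf6. Within libraries, Celf5 lay above Elavl2, Elavl2 above Celf2, Celf4 above Celf1 and Elavl1 above Celf3 in all 6. Elavl4 lay above Elavl3, Elavl3 above Celf5 and Celf2 above Celf4 in 5 of the 6. Length matters for this order, because Celf2 has 25884 bases of annotated exons but a longest transcript of 8856 bases. Per kilobase of the longest transcript Celf2 was first at 60.8 CPM per kilobase, followed by Elavl2 (47.7), Elavl4 (45.7), Elavl3 and Celf5 (both 45.2) and Celf4 (38.6). On that scale a gap without overlap separated these 6 from Elavl1 (19.7), Celf3 (15.4) and Celf1 (14.5). On both scales Celf6 was below the other 9 in every library.

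**Figure D3:**
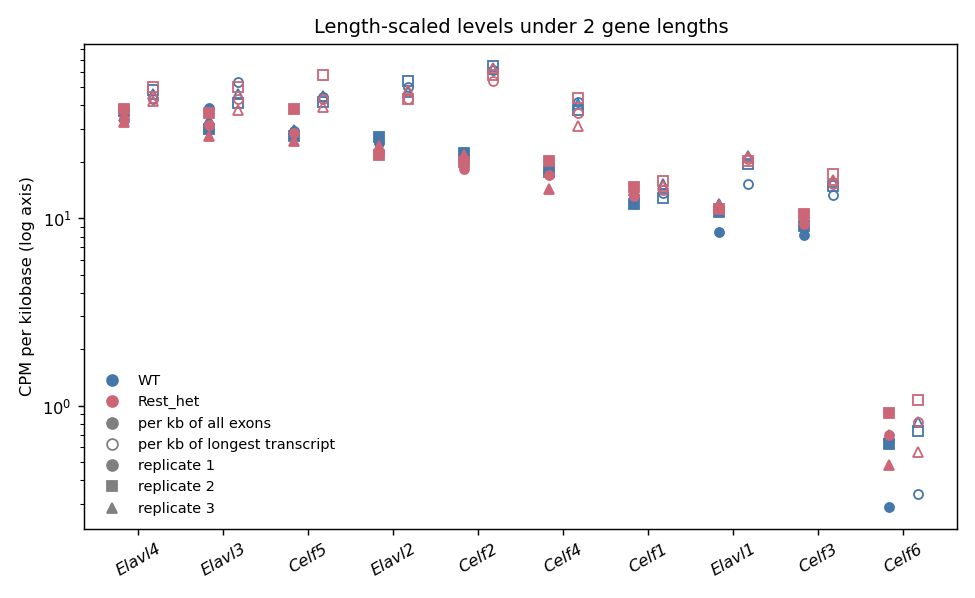
CPM per kilobase (y axis, log scale) of each gene in every library, with filled markers for all annotated exons and open markers for the longest transcript, blue for WT and red for Rest_het. Celf2 moves from 20.8 to 60.8 CPM per kilobase between the 2 lengths, and Celf6 stays lowest.

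Within the Elavl family, shares of the summed level per kilobase of all exons were 8.0 to 12.3% for Elavl1, 20.2 to 25.9% for Elavl2, 28.5 to 36.7% for Elavl3 and 31.6 to 35.7% for Elavl4 over the 6 libraries. Neuronal members thus made up most of the family's RNA in this tissue under this length. The sum of Elavl2, Elavl3 and Elavl4 was 11.5, 8.77 and 7.78 times Elavl1 in WT and 7.60, 8.61 and 7.16 times in Rest_het. WT replicate 1, the library with the least Elavl1, had the highest ratio, and the groups overlapped. Within the Celf family Celf5 held 30 to 36.6%, Celf2 19.0 to 25.2%, Celf4 16.7 to 21.3%, Celf1 13.5 to 16.1%, Celf3 9.0 to 11.4% and Celf6 0.3 to 0.9%. Rest_het replicate 2 had the largest Celf5 share and the smallest Celf2 share. The unstranded count leaves out pairs where Celf5 overlaps Gm16105, so its share may be understated on either gene length.

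Several members shared the library in which they were highest or lowest. How often each library was highest or lowest over all tested genes was not counted, so these counts have no background. Rest_het replicate 2 was the highest library for 6 of the 10 members, namely Elavl4, Celf1, Celf3, Celf4, Celf5 and Celf6. Rest_het replicate 3 was the lowest for Elavl3, Elavl4, Celf4 and Celf5, and WT replicate 1 was the lowest for Elavl1, Celf3 and Celf6. Elavl1 and Elavl3 stood at opposite ends in WT replicate 1, at 0.36 below and 0.25 above their own log2 means over the 6 libraries.

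Cell type markers were read beside the members. Bulk tissue cannot tell fewer cells of a type from less RNA per cell. All 12 neuron markers and all 12 progenitor markers were present, and the 12 neuron markers summed to 4410 to 4865 CPM in WT and 3908 to 4115 CPM in Rest_het, without overlap. Map2 (chromosome 1) encodes a dendritic microtubule protein. Without it, the sums of the other 11 were 3780 to 4035 CPM in WT and 3447 to 3639 CPM in Rest_het. Of these 12, edgeR called 0, 3 reached an unadjusted p under 0.05, all lower (Map2, Dcx and Stmn2), DESeq2 called 1 and limma-voom 0. Over all tested genes 4.72% were lower at that p, and DESeq2 called 127 of 15385. The log2 fold change was below 0 for 9 of the 12, with a median of -0.11, and above 0 for Rbfox3, Syt1 and Nefl, a neurofilament gene at 13.7 to 24.7 CPM in WT and 18.6 to 39.1 CPM in Rest_het. Gene by gene, 4 of the 12 markers were lower without overlap, where 8.94% of all tested genes were, and 0 were higher without overlap. The groups of the remaining markers overlapped, as did those of each of the 3 neuronal Elavl genes. WT replicate 1 was the highest library for the summed neuron markers and for Elavl3. The difference between the markers and the Elavl genes was not tested. Progenitor markers summed to 1792 to 2031 CPM in WT and 1645 to 1769 CPM in Rest_het, also without overlap. This sum holds Fabp7, at 877, 1107 and 985 CPM in WT and 842, 982 and 841 CPM in Rest_het, whose groups overlapped. The sum without Fabp7 was not taken, so a separation is not shown for the other progenitor markers. Gene by gene, 1 of the 12 was higher and 2 were lower without overlap. At an unadjusted edgeR p under 0.05, 1 was higher and 3 were lower, and 0 were called. Markers of interneurons and the ventral telencephalon, 8 of 8 present, summed to 174 to 238 CPM in WT and to 205, 343 and 191 CPM in Rest_het. Their log2 fold change was above 0 for 7 and below 0 for 1, with a median of 0.397. In 0 of them did the groups separate without overlap, and 0 had an unadjusted edgeR p under 0.05. Rest_het replicate 2 was the highest for them as it was for Celf5, and their part in the Celf5 value was not tested. The 8 markers of thalamus, hem and choroid plexus summed to 179 to 321 CPM in WT and 175 to 602 CPM in Rest_het, sums that hold Ttr, a choroid plexus gene at 2.27 to 357 CPM. Gene by gene, 7 of these 8 were above 0 on the log2 scale, at a median of 1.25. Of the 8, 5 were higher at an unadjusted edgeR p under 0.05 and without overlap. They were Lhx9 and Prox1 (chromosome 1), Barhl2 (chromosome 5), Calb2 (chromosome 8) and Otx2 (chromosome 14). Several of these were scarce, with Otx2 at 0.257 to 2.38 CPM, Prox1 at 0.860 to 4.38 CPM and Barhl2 at 1.11 to 10.9 CPM over the 6 libraries. Lhx9 was at 4.17 to 14.4 CPM and Calb2 at 9.89 to 26.3 CPM. Over all tested genes 6.98% were higher at that p and 10.4% without overlap. Of the 8, edgeR and limma-voom called 0 and DESeq2 1, and their part in the members' values was not tested. The 6 markers of endothelium and pericytes summed to 204 to 311 CPM in WT and 295 to 1524 CPM in Rest_het. Rgs5, a pericyte gene on chromosome 1, alone measured 1432 and 1161 CPM in Rest_het replicates 1 and 2. In the other 4 libraries Rgs5 was at 152 to 216 CPM. Red cell markers summed to 512 to 651 and 314 to 640 CPM, meningeal markers to 95.7 to 242 and 94.9 to 266 CPM, microglial markers to 28.6 to 34.2 and 26.2 to 33.9 CPM, and oligodendrocyte markers to 10.6 to 21.6 and 13.5 to 20.3 CPM. No marker was at 0 in all libraries.

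**Figure D4:**
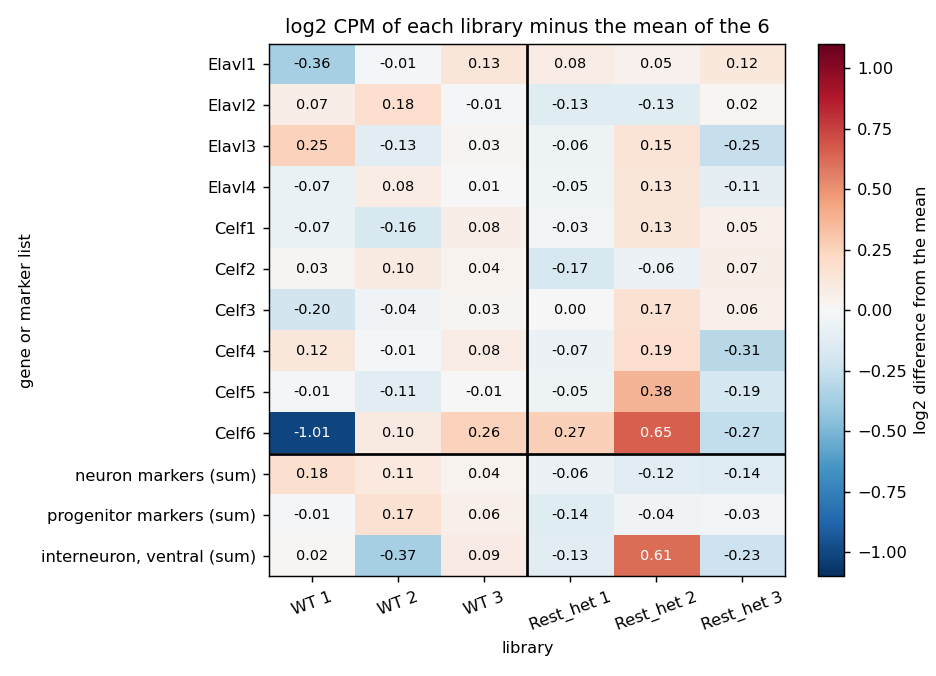
Difference of log2 CPM in each library (x axis) from the mean of the 6 libraries, for the 10 genes and for 3 summed marker lists (y axis), with red for higher and blue for lower. The column of Rest_het replicate 2 is 0.38 above the mean for Celf5 and 0.61 above it for the interneuron and ventral markers.

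Genes with the most similar pattern over the 6 libraries were listed by Pearson correlation of log2 CPM, among genes averaging at least 10 CPM. With 6 points such values are common: 383 of 8270 genes had a correlation above 0.9 with Elavl1, 151 with Elavl2, 37 with Elavl3 and 60 with Celf5, and all share the same libraries and depth. The 3 closest genes to Elavl1 were Bach1, Tmem108 and Mta2 (r from 0.993 to 0.999), and to Elavl2 mt-Nd5, Tmeff1 and Ccnt1 (0.989 to 0.991). To Elavl3 they were Prune1, Ppp1r21 and Cadm1 (0.981 to 0.991), and to Elavl4 Mthfd2, Spcs1 and Gm42372 (0.98 to 0.982). Closest to Celf1 were Mfsd11, Abhd10 and Lpin2 (0.978 to 0.993), to Celf2 Adipor1, Pum2 and Kdm7a (0.985 to 0.991), and to Celf3 Aggf1, Prkcsh and Dtnbp1 (0.99 to 0.997). Closest to Celf4 were Sipa1l1, Hmgcs1 and Mog (0.973 to 0.988), to Celf5 Sox2, Sirt6 and Ing3 (0.98 to 0.991), and to Celf6 H3f3b, Ccdc58 and Ranbp1 (0.99 to 0.994). Bach1 showed the same low value in WT replicate 1 as Elavl1, at 11.7 CPM against 15.8 to 18.1 CPM elsewhere. Sox2, a transcription factor of progenitors, showed the high value of Rest_het replicate 2 as Celf5 did, at 48.2 CPM against 35.01 to 38.0 CPM.

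Other genes that act with or through these proteins were read from the same fit. Among 26 reported Elavl targets, edgeR, DESeq2 and limma-voom each called 0. At an unadjusted edgeR p under 0.05, 3 were higher and 1 was lower, where 6.98% and 4.72% of all tested genes were. On the log2 scale the fold change was above 0 for 13 and below 0 for 13, with a median of 0.0036. Nova1, a neuronal splicing factor, measured 17.2, 12.4 and 12.4 CPM in WT and 22.3, 30.3 and 14.0 CPM in Rest_het. Its groups overlapped, since Rest_het replicate 3 lay below WT replicate 1. The fold change of Nova1 on the log2 scale was 0.66 (SE 0.27, edgeR adjusted p = 0.41), and that of Camk2a, a synaptic kinase, was 0.57 (SE 0.22, edgeR adjusted p = 0.40).

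Of 14 reported Celf targets 11 were tested, without Tnnt2, Ptgs2 and Cebpb, which did not pass the filter. By edgeR, DESeq2 and limma-voom 0 were called, and 2 were at an unadjusted edgeR p under 0.05, both higher. Over all tested genes 6.98% were higher at that p. Of the 11, 4 had a log2 fold change above 0 and 7 below it, with a median of -0.04. Jun, an immediate early transcription factor whose mRNA CELF1 binds, measured 16.2, 19.8 and 21.8 CPM in WT and 25.5, 28.6 and 25.6 CPM in Rest_het. Every Rest_het value of Jun lay above WT, as for 10.4% of all tested genes, with a log2 fold change of 0.46 (SE 0.13, edgeR adjusted p = 0.33). Lef1, a transcription factor of Wnt signalling, had 0.69 (SE 0.22, edgeR adjusted p = 0.36), and Grin1, the obligatory NMDA receptor subunit, -0.56 (SE 0.32, edgeR adjusted p = 0.52).

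Partners and modifying enzymes of HuR and CELF1 counted 14, with 0 called by edgeR, DESeq2 or limma-voom. At an unadjusted edgeR p under 0.05, 1 was higher and 3 were lower, where 6.98% and 4.72% of all tested genes were. On the log2 scale the fold change was above 0 for 7 and below 0 for 7, with a median of -0.03. Chek2, the kinase that releases HuR from its targets under stress, measured 12.5, 15.4 and 13.5 CPM in WT and 8.27, 9.48 and 10.8 CPM in Rest_het. Its groups did not overlap, with Rest_het lower, as in 8.94% of all tested genes. Its log2 fold change was -0.54 (SE 0.15, edgeR adjusted p = 0.33). Chek2 lies at 110839979 on chromosome 5, between the called genes Gm15446 (109923400) and Mn1 (111417362). The part of its position in this value was not tested. The nuclear export receptor Xpo1 had -0.23 (SE 0.09, edgeR adjusted p = 0.40). The import receptor Tnpo2 (chromosome 8) had 0.29 (SE 0.12, edgeR adjusted p = 0.41).

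Among 10 other proteins that bind AU-rich elements, 0 were called by edgeR, DESeq2 or limma-voom, with a median log2 fold change of -0.05. At an unadjusted edgeR p under 0.05, 6.98% of all tested genes were higher, and so was 1 of these 10. That gene was Zfp36l1, which promotes decay of AU-rich transcripts, at a log2 fold change of 0.54 (SE 0.23, edgeR adjusted p = 0.42). Its relative Zfp36l2 had 0.32 and the splicing regulator Tial1 -0.18. Among 29 genes of deadenylation, decapping and the exosome, 0 were called by any of these tools, and 2 were higher at an unadjusted edgeR p under 0.05, with a median of -0.0025. They were the exosome subunit gene Exosc4, at 0.395 (SE 0.12, edgeR adjusted p = 0.35), and the deadenylase subunit gene Cnot3, at 0.81 (SE 0.26, edgeR adjusted p = 0.36). Cnot1 (chromosome 8), the scaffold of that deadenylase, had -0.21.

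The muscleblind genes, which oppose CELF proteins at shared exons, had 0 of 3 members called by edgeR, DESeq2 or limma-voom and 0 at an unadjusted edgeR p under 0.05. Mbnl1 measured 676, 490 and 491 CPM in WT and 441, 466 and 103 CPM in Rest_het, with Rest_het replicate 3 far below the other 5 libraries (log2 fold change -0.71, SE 0.47, edgeR adjusted p = 0.56). Mbnl2 and Mbnl3 had log2 fold changes of 0.05 and -0.05.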

How the data were processed

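Per the submitters' processing notes, the authors aligned reads with STAR 2.5.2a to GRCm38.p4. The deposited files hold whole-number counts of read pairs per gene from libraries that, per the labels' protocols, were primed with oligo dT, amplified by PCR and tagmented without strand marks or molecular identifiers. The annotation they used is not given in the sources used here. The unstranded count column was used, and rows that name no gene were left out. They held the unmapped pairs (1.21 to 1.45%), the multimapping pairs (6.29 to 7.48%), those in no gene (21.4 to 26.9%) and the ambiguous ones (2.54 to 2.85%). Pairs that map to several places are not counted, so stretches shared between paralogs add nothing to either gene. A deposited normalized table made from the same libraries was not used.

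Symbols matched 48349 of 48709 gene IDs, and positions and lengths came from GENCODE M21 (GRCm38), which may differ from the authors' gene models. In R 4.3.3, edgeR 4.0.16 fitted genotype alone to the TMM-scaled counts, and its quasi-likelihood F statistic gave p-values. filterByExpr (count minimum 10, total 15) left 15385 genes, and p-values were adjusted over all of them by Benjamini-Hochberg, with a threshold of 0.05. SE was derived from the fold change and F, and intervals are 1.96 SE on each side. Families and lists were described by counts and medians, with no test of their own. Alternatives used DESeq2 1.42.0, limma-voom (limma 3.58.1), other scaling and filters, the replicate number as a block, each library left out, and another gene length. The sum of the strand-specific columns was added after seeing the data. Plots used matplotlib 3.10.9.

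The members and lists were chosen with earlier results of these data known. The text names all members, the 3 genes of each list of partners and targets with the smallest unadjusted p, the 3 genes closest in pattern to each member, Rest, Xist and the transgenes. One gene that the rule names is not reported here. Marker lists are given by their sums, and the single markers named were chosen after their values were seen.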

Additional observations from a re-analysis of the deposited data

Results flagged for a closer look

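Reads of transgene sequences, which lie outside the gene counts, split by genotype: 43 Cre-ERT2 reads over the 3 Rest_het libraries with 0 in WT, and 121 LacZ reads over the 3 WT libraries with 0 in Rest_het. Groups of 3 libraries are too small for the check of single outlying libraries, and only 1 contrast exists.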

How the results depend on the processing

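Each of the 10 members was recomputed under 14 alternatives. In these 140 values no member was called, with adjusted p from 0.391 to 0.999, and 135 kept the direction. The sign turned in 5: Elavl4 had log2 fold changes of 0.026 without WT replicate 2, 0.008 without Rest_het replicate 1 and 0.039 without Rest_het replicate 3, Celf4 had 0.0044 without Rest_het replicate 3, and Celf5 had -0.076 without Rest_het replicate 2. With 1 library left out, Elavl4 ranged from -0.083 to 0.039, Celf4 from -0.243 to 0.0044 and Celf5 from -0.076 to 0.223. The cause was not tested. The number of genes called over all tested genes was 19, against 127 with DESeq2, 107 with no filter, 6 with the replicate block and 12 to 35 with 1 library left out, while DESeq2 size factors, upper-quartile factors, limma-voom, a filter of CPM 1 in 3 libraries and the strand-specific sums gave 19 to 21. Leaving out WT replicate 1 gave 12, WT replicate 2 gave 35 and Rest_het replicate 3 gave 32.

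Deviations of same-numbered libraries from their group means correlated at 0.011, 0.037 and -0.144 over tested genes, and those of different-numbered libraries at -0.175 to 0.17. So few values cannot show whether the replicate numbers pair the samples. Mean shares in the family depend on gene length. With the longest transcript in place of all exons, they were 12.5% for Elavl1, 30.1% for Elavl2, 28.5% for Elavl3 and 28.8% for Elavl4, and 8.3% for Celf1, 34.8% for Celf2, 8.8% for Celf3, 22.0% for Celf4, 25.7% for Celf5 and 0.4% for Celf6. TMM scaling cancels in a share within a library, so leaving it out could not move one. Depth limited Celf6 most, with 22 to 60 reads per library. Counts of PCR copies are included, so counting errors cover sampling of reads only.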
